A study of Mus musculus with 6 samples.

Results

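The genes described here encode the subunits of oxidative phosphorylation, the inner-membrane respiratory complexes I to IV and the ATP synthase (complex V). They were chosen by gene name from the deposited table: the Nduf, Sdh, Uqcr, Cox4 to Cox8 and Atp5 series of the nucleus and the mt-Nd, mt-Co, mt-Cytb and mt-Atp genes of the mitochondrial genome, without pseudogenes marked -ps. The rule itself used names and a count minimum, not differences between the groups. Of 101 matching symbols, 12 had under 10 counts over the 6 libraries, which left 89 members of 52636 rows, 80 nuclear and 9 mitochondrial. The test across genes covered 79 of the nuclear and 7 of the mitochondrial members.

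The libraries were made from polyadenylated RNA of endothelial cells cultured from mouse brain. All cultures, controls included, had been given 4-OHT (4-hydroxytamoxifen), the ligand that activates tamoxifen-inducible recombinases, to delete genes. Live cells (DAPI-negative) without CD45 were taken by a sort on CD31 and VE-cadherin. The 3 libraries labelled wild-type control are called controls, and the 3 labelled double knockout of Erg and Fli1 are called knockouts. The sources used here name no Cre driver, strain or age of the animals, and do not say how many animals the cultures of a group came from. Both groups held male and female libraries by their Xist and Ddx3y levels, so neither group came from a single animal. Erg and Fli1 are transcription factors of the ETS family that endothelial cells express.

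Oxidative phosphorylation passes electrons from NADH through complex I, or from succinate through complex II, to ubiquinone, then through complex III and cytochrome c to complex IV, which reduces oxygen. Complexes I, III and IV pump protons, and the ATP synthase uses the gradient to make ATP. Most subunits are encoded in the nucleus and imported, while a core set is encoded in the mitochondrial genome, transcribed as long precursors of both strands that are cut into single transcripts. Endothelial cells are known for making much of their ATP by glycolysis.

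Nuclear subunit promoters are known as targets of GABP, whose DNA-binding subunit Gabpa is itself an ETS factor, and of NRF1 and YY1. Each RefSeq promoter window of the GRCm38.p6 assembly, 250 bases before to 50 after an annotated start, was searched on both strands for CCGGAAG (ETS type), CGCATGCG (NRF1 core) and AAGATGGC (YY1 core). The last bases of the first motif and the first of the last can coincide, but 0 member windows held such a shared match. A window was found for 65 of the 80 nuclear members. The ETS letters occurred in 16 of the 65 (24.6%), against 19.8% of 10309 tested genes with a window and 11.99% of all 20320 genes with one. The NRF1 letters occurred in 9 members (13.8%), against 4.20% of tested genes with a window and 2.53% of all with one. The YY1 letters also occurred in 9 members (13.8%), against 5.23% and 3.45%. Of the 9 YY1 matches, 8 lay between the first bases 22 and 38 downstream of the start on the gene's strand, and 7 of those 8 were in complex I genes. The 37 members with none of the 3 motifs hold only a lack of these letters in this window.

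Windows of 3 members are shown because they cover the range of matches, with matched letters in capitals. Atp5j, a stalk subunit gene of the ATP synthase, has the 1 window with all 3 motifs. It is the downstream one of 2 annotated windows of that gene (chr16:84834927-84835226, minus strand), with first bases at -147 (NRF1), -88 (YY1) and -61 (ETS) from the start base, counted as 0. This window lies within the oppositely oriented Gabpa gene, near its start, so the matches cannot be assigned to Atp5j alone. The upstream window of Atp5j held none of the 3 motifs. Cox8a, a complex IV subunit gene (chr19:7217567-7217866, minus strand), has the ETS letters at -5 and 32, both on the opposite strand and so read as CTTCCGG. Ndufa4, the nuclear member with the largest difference below (chr6:11907401-11907700, minus strand), has no match.
Atp5j: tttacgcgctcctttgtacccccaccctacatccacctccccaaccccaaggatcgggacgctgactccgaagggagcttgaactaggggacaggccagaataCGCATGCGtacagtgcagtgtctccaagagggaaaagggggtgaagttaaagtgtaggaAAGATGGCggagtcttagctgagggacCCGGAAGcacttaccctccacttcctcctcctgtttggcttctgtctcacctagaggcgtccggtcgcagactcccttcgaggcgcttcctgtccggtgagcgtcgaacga
Cox8a: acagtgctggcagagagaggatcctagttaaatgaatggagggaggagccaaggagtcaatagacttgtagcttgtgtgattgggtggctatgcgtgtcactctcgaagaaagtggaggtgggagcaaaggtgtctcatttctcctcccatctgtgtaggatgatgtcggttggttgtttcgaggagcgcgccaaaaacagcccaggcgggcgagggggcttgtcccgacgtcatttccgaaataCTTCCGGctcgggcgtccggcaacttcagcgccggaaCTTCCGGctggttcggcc
Ndufa4: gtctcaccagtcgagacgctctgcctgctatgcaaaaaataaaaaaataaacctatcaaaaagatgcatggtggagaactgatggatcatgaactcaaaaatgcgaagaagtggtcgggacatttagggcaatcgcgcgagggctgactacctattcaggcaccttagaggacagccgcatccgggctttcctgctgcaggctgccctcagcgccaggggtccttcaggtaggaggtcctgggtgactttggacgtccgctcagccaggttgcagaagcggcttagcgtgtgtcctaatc

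The levels of the deleted genes and of cell markers frame the comparison. Levels are CPM, a gene's counts relative to the TMM-scaled total of its library, and differences are log2 fold changes of knockout minus control with their standard error (SE) and the adjusted p of edgeR's quasi-likelihood test over 13901 genes. Library totals were 17274639 to 19410458 counts. Erg had 656, 223 and 610 CPM in controls 1 to 3 and 70.2, 88.3 and 109 CPM in knockouts 1 to 3 (log2 fold change -2.48, SE 0.44, adjusted p 0.014). Fli1 had 82.9, 64.2 and 92.1 CPM against 57.0, 68.5 and 66.7 CPM, and did not pass the test (log2 fold change -0.32, SE 0.15, adjusted p 0.18). Both counts cover whole genes, and the labels do not name the deleted exons. Control 2 stood apart: its chi-square per degree of freedom was 190 against control 1 and 173 against control 3, while controls 1 and 3 differed by 5.80 and the knockouts among themselves by 9.17 to 10.6. The 12 fibroblast markers summed to 462, 13772 and 1216 CPM in controls 1 to 3 and to 1669 to 2899 CPM in the knockouts, with 0 markers at 0 counts, and 11 of the 12 were higher in control 2 than in both other controls. The 12 pericyte and smooth muscle markers summed to 1507, 5440 and 1582 CPM against 1334 to 2021 CPM, with 11 of 12 highest of the controls in control 2. The 20 endothelial genes summed to 21154, 9149 and 20888 CPM against 6051 to 7102 CPM, and 15 of them fell. The 12 leukocyte genes summed to 3.95 to 7.79 CPM in controls and 3.24 to 4.07 in knockouts, with Tyrobp and C1qa at 0, and the 6 red blood cell genes to at most 0.28 CPM, 5 of them at 0. The 12 neural and glial genes summed to 26.3 to 83.7 CPM against 63.2 to 92.1 CPM. By Xist and the Y-linked Ddx3y, controls 1 and 3 and knockout 1 were male and the other 3 libraries female, so control 2 was also the sole female control. Results on the subunits are given with and without control 2, and the part of these other transcripts or of sex in them was not tested.

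The mitochondrially encoded transcripts lay lower in the knockouts, at differences that edgeR did not call. All 7 that could be tested had lower levels in every knockout library than in any control, a separation in that direction that 21.3% of all tested genes had. By edgeR 0 of the 7 passed the test, against 11.7% of all tested genes called lower and 13.1% called higher. At an unadjusted p under 0.05, 6 of the 7 were lower, as were 18.9% of all tested genes. DESeq2 called 6 of the 7 lower and 16.5% of all tested genes, and limma voom called 0 of the 7 and 10.7% of all. Their median log2 fold change was -0.64, and that of all genes was 0.003.

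mt-Co1 encodes the catalytic core subunit of complex IV and had the highest level per length of all members, 6610 CPM per kb. Its level was 15860, 8249 and 14913 CPM in controls 1 to 3 and 7484, 7943 and 6827 CPM in knockouts 1 to 3 (log2 fold change -0.81, SE 0.28, adjusted p 0.090). Controls 1 and 3 lay at about the same level, and control 2 lay just above the knockouts. mt-Nd4 encodes a membrane-arm subunit of complex I, with 2051, 1250 and 1884 CPM against 1133, 1160 and 994 CPM (log2 fold change -0.66, SE 0.20, adjusted p 0.067). mt-Nd5, another proton-pumping subunit of that arm, had 4353, 2474 and 4205 CPM against 2414, 2428 and 2098 CPM (log2 fold change -0.67, SE 0.24, adjusted p 0.096). mt-Nd6, the only subunit gene on the other strand of the genome, had 1120, 649 and 1016 CPM against 621, 603 and 561.5 CPM (log2 fold change -0.64, SE 0.21, adjusted p 0.078). In these 4 transcripts control 2 had 0.54 to 0.64 times the mean of controls 1 and 3.

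The other 3 transcripts were closer together, and control 2 sat nearer the other controls. mt-Nd2 had 1999, 1622 and 1826 CPM in the controls against 1519, 1503 and 1313 CPM in the knockouts (log2 fold change -0.33, SE 0.12, adjusted p 0.11). mt-Nd1 had 1998, 1900 and 1838 CPM against 1659, 1618 and 1358 CPM (log2 fold change -0.31, SE 0.12, adjusted p 0.11). Both encode complex I subunits of the membrane arm. mt-Cytb, cytochrome b of complex III, had 3032, 3139 and 2780 CPM against 2697, 2710 and 2248 CPM (log2 fold change -0.23, SE 0.13, adjusted p 0.24). Control 2 had 0.85, 0.99 and 1.08 times the mean of the other controls for mt-Nd2, mt-Nd1 and mt-Cytb.

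**Figure D1:**
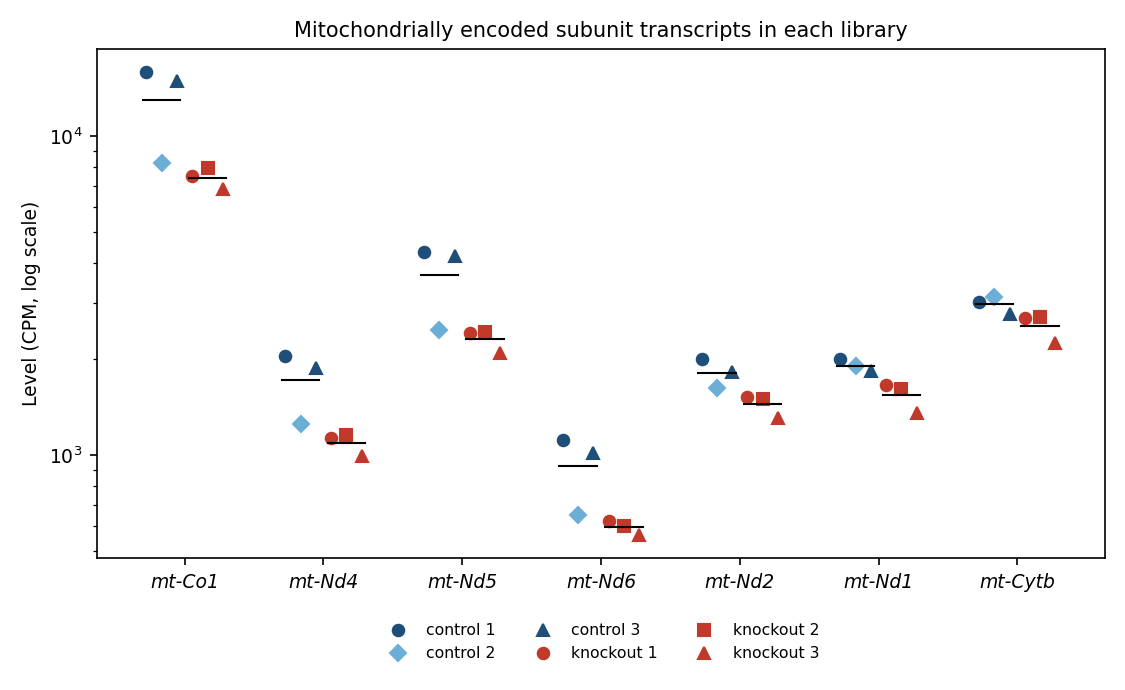
Level of the 7 tested mitochondrially encoded subunit transcripts (x axis) in CPM on a log axis, 1 symbol per library, with a line at each group mean (n = 3). Control 2 (light diamonds) lies near the knockouts for mt-Co1, mt-Nd4, mt-Nd5 and mt-Nd6 and near controls 1 and 3 for mt-Nd1 and mt-Cytb.

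Ratios between transcripts of 1 library do not depend on library scaling. Per mt-Cytb count there were 5.23, 2.63 and 5.36 mt-Co1 counts in controls 1 to 3 and 2.77, 2.93 and 3.04 in the knockouts. The ratio of mt-Nd5 to mt-Cytb was 1.44, 0.79 and 1.51 against 0.89, 0.90 and 0.93. Control 2 thus had the lowest of the 6 values in both ratios, and the 3 knockouts lay close to each other. The ratio of mt-Nd1 to mt-Cytb differed less, 0.66, 0.61 and 0.66 against 0.61, 0.60 and 0.60. The transcripts were therefore unequally different between the groups and also among the controls. These ratios were chosen after the values were seen and are given without a test.

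Without control 2, 6 of the 7 transcripts were called lower, all except mt-Cytb, against 24.8% of all tested genes called lower in that fit. That fit set 2 male controls against 1 male and 2 female knockouts, so group and sex are partly confounded in it. The log2 fold change of mt-Co1 was then -1.09, that of mt-Nd5 -0.92, and those of mt-Nd4 and mt-Nd6 -0.88 each, while mt-Nd2 had -0.44, mt-Nd1 -0.35 and mt-Cytb -0.22. Over 16 alternative fits the adjusted p of mt-Co1 ran from 5.3e-05 to 0.25, and its log2 fold change stayed negative, from -1.09 to -0.60. With all 6 libraries and a term for sex, the median log2 fold change of the 7 transcripts was -0.47. In that edgeR fit none was called, and 2 had an unadjusted p under 0.05. Over all 13901 tested genes, 1137 were called lower in it, in place of 1621 without the term. Within the males, the single knockout had 48.6% of the mean mt-Co1 level of the 2 controls, and within the females the 2 knockouts had 89.5% of the level of the single control. For mt-Nd5 these values were 56.4% and 91.5%, and for mt-Nd1 86.5% and 78.3%. With 1 library in 1 group of each sex there is no test within a sex, and in the females the comparison rests on control 2. The summed level of the 9 mitochondrial members was 26053 ± 5944 CPM (SD, n = 3) in controls and 16963 ± 1372 CPM (SD, n = 3) in knockouts, 65.1% of the control mean. By library it was 30413, 19283 and 28463 CPM in controls 1 to 3 and 17527, 17963 and 15400 CPM in the knockouts. mt-Co1 alone held 13007 CPM of the control mean and 7418 CPM of the knockout mean. The log2 ratio of the sum was -0.59 with all libraries and -0.80 without control 2. As in any bulk sample, fewer cells of a type and less RNA per cell cannot be told apart.

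The mitochondrial rows do not cover the whole genome of the organelle. Of the 13 subunit genes, mt-Co2, mt-Atp6, mt-Atp8 and mt-Nd4l had 9, 3, 0 and 0 counts in all and fell under the minimum, and mt-Co3 and mt-Nd3 had 10 and 12 counts and were not tested. All of these except mt-Atp8 share 98.0 to 100% of their 50-base transcript sequences with other annotated genes, nuclear copies of mitochondrial sequence among them. mt-Nd4 shares 62.2% and mt-Co1 51.1%, so the counting could have dropped or split their reads, while mt-Nd1, mt-Nd6 and mt-Cytb share none. mt-Nd6 and mt-Nd5 lie on opposite strands and overlap by 2.7% of the mt-Nd6 exon, and whether the counting used strand is not given in the sources used here. Of other mitochondrial rows, named after their values were seen, the proline tRNA mt-Tp fell from 55.4 ± 23.2 to 21.6 ± 1.25 CPM (SD, n = 3 each; log2 fold change -1.36, adjusted p 0.034). The ribosomal RNAs mt-Rnr1 and mt-Rnr2 did not pass the test (log2 fold changes -0.51 and -0.28, adjusted p 0.078 and 0.31).

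The nuclear subunits differed little between the groups. Of the 79 tested, 6 rose and 0 fell by edgeR, 7.59% called, against 24.7% of all tested genes. At an unadjusted p under 0.05, 13 were higher and 2 lower, against 20.1% and 18.9% of all tested genes. DESeq2 called 7 higher and 2 lower, against 15% and 16.5% of all, and limma voom 6 higher and 0 lower, against 14.1% and 10.7%. The 2 that DESeq2 called lower were Atp5b and Atp5g1. The median log2 fold change was 0.055, with 49 above and 30 below 0. The log2 fold change lay within 0.5 of 0 for 77 of 79 (97.5%), against 65.8% of all tested genes. Exons of 25 of the 80 overlap a gene on the opposite strand, and 4 (Atp5g2, Uqcrb, Cox7c and Ndufs5) share at least 20% of their 50-base sequences with other genes, so their counts are less certain. All knockouts lay above all controls in 19 members, where 25.0% of all tested genes did, and below them in 7, where 21.3% did. The summed level was 5927, 5721 and 6075 CPM in controls 1 to 3 and 5944, 6133 and 5811 CPM in the knockouts, so the groups overlapped and the knockout mean was 100.9% of the control mean. By complex it was 106.7% for I, 97.4% for II, 97.7% for III, 103.1% for IV and 98.1% for V. In complex I alone the groups did not overlap, with 1478, 1428 and 1504 CPM against 1559, 1604 and 1545 CPM. These sums were not tested.

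**Figure D2:**
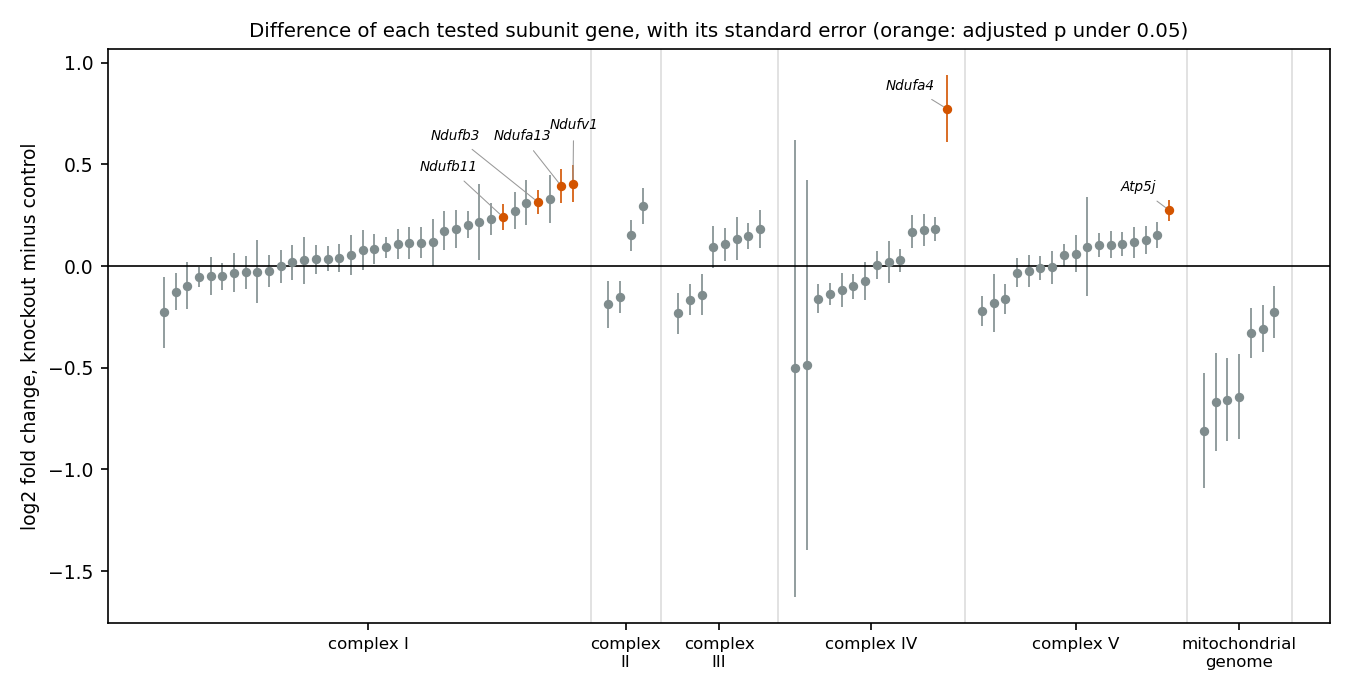
log2 fold change (y axis, knockout minus control) of the 79 nuclear members by complex and of the 7 mitochondrial members, with bars of 1 SE, ordered by size within a group along the x axis. The 6 called genes (orange) are 4 of complex I, Ndufa4 of complex IV and Atp5j of complex V, and the 7 mitochondrial members all lie below 0.

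Complex I, the NADH dehydrogenase, had 36 nuclear members, of which 4 rose and 0 fell, with a median log2 fold change of 0.081. The 4 are 11.1% of them, near the 13.1% of all tested genes called higher. Ndufv1 encodes the flavin-binding subunit that takes electrons from NADH. Its level was 54.5, 65.3 and 55.1 CPM in controls and 75.7, 75.2 and 80.7 CPM in knockouts (log2 fold change 0.41, SE 0.089, adjusted p 0.026). Ndufa13, an accessory subunit also known as Grim19, had 45.2, 52.5 and 45.7 CPM against 62.0, 66.1 and 60.2 CPM (log2 fold change 0.39, SE 0.084, adjusted p 0.024). In both genes control 2 was the highest control and still lay below every knockout. Of the exonic bases of Ndufa13, 29.98% overlap the oppositely oriented Tssk6.

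Ndufb3 and Ndufb11 are accessory subunits of the membrane arm. Ndufb3 had 25.0, 24.8 and 25.4 CPM in controls and 30.8, 31.9 and 30.9 CPM in knockouts (log2 fold change 0.31, SE 0.060, adjusted p 0.017). Ndufb11 had 43.9, 44.1 and 44.5 CPM against 51.3, 55.0 and 50.3 CPM (log2 fold change 0.24, SE 0.063, adjusted p 0.040). The controls of either gene lay within 1 CPM of each other, control 2 included. Both calls were lost with no filter on low counts, which left 4 of the 6 called nuclear genes, and that of Ndufb11 also under RLE and upper-quartile scaling and with a term for sex. The Ndufb11 exons overlap the oppositely oriented Rbm10 by 12.9%.

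Among the complex I genes that did not pass, Ndufa7, an accessory subunit, had the next largest difference, with 34.0, 45.4 and 36.8 CPM against 47.3, 49.8 and 48.9 CPM (log2 fold change 0.33, SE 0.12, adjusted p 0.098). Ndufs1, the largest core subunit with iron-sulfur clusters, had 80.4, 73.6 and 85.3 CPM against 80.8, 83.8 and 81.6 CPM, and the groups overlapped. Ndufa10 had 71.5, 70.3 and 72.2 CPM against 78.0, 77.2 and 72.8 CPM (log2 fold change 0.091, adjusted p 0.26). The remaining nuclear members of the complex had log2 fold changes from -0.23 to 0.31.

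Complex II, succinate dehydrogenase, is encoded by 4 nuclear genes and by none in the mitochondrion. By edgeR 0 of 4 passed the test, against 24.7% of all tested genes called in either direction. By limma voom 0 of 4 passed, against 14.1% of all called higher and 10.7% lower. Sdhc alone had an unadjusted p under 0.05, and DESeq2 called it higher. The 2 catalytic subunits lay lower in knockouts and the 2 membrane anchors higher. Sdha, which holds the flavin and oxidises succinate, had 296, 228 and 292 CPM against 246.5, 236.2 and 234.3 CPM (log2 fold change -0.19, SE 0.12, adjusted p 0.28), so control 2 was the lowest of all 6 libraries. Sdhb, the iron-sulfur subunit, had 80.2, 75.1 and 89.5 CPM against 71.3, 75.1 and 73.9 CPM (log2 fold change -0.15, adjusted p 0.21). The anchors Sdhc and Sdhd had log2 fold changes of 0.29 (adjusted p 0.056) and 0.15 (adjusted p 0.20). Sdhc had 80.2, 93.0 and 83.4 CPM against 106, 112 and 96.5 CPM, with no overlap. Without control 2, Sdhc was called higher and Sdha and Sdhb lower, where 25.5% of all tested genes were called higher and 24.8% lower.

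Complex III, which carries electrons from ubiquinol to cytochrome c, had 8 nuclear members with 0 called in either direction by edgeR, DESeq2 or limma voom and 0 at an unadjusted p under 0.05. The core proteins Uqcrc1 and Uqcrc2 had the most abundant transcripts among these nuclear members. Uqcrc1 had 153, 141 and 164 CPM against 132, 142 and 134 CPM (log2 fold change -0.17, SE 0.075, adjusted p 0.16), and Uqcrc2 had 123, 104 and 126 CPM against 102, 117 and 102 CPM. In both genes the groups overlapped through control 2. Uqcrq, a small ubiquinone-binding subunit, had 63.3, 62.6 and 65.5 CPM against 59.5, 46.9 and 56.5 CPM (log2 fold change -0.23, SE 0.10, adjusted p 0.15), with no overlap. Uqcrh, the hinge protein, had 70.5, 83.1 and 70.3 CPM against 85.8, 89.8 and 78.3 CPM (log2 fold change 0.18, adjusted p 0.21). The other 4 members, Uqcr10 among them, had log2 fold changes from 0.093 to 0.15. Without control 2, Uqcrh was called higher and Uqcrc1 and Uqcrc2 lower, where 25.5% of all tested genes were called higher and 24.8% lower.

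Complex IV, cytochrome c oxidase, had 15 nuclear members, 14 of them tested, of which Ndufa4 alone was called (7.14%, against 24.7% of all tested genes called in either direction). Ndufa4 was first described in complex I and is now assigned to complex IV. It had the largest log2 fold change of the nuclear members, rising from 34.9, 49.4 and 40.0 CPM in controls to 66.3, 82.6 and 63.5 CPM in knockouts (log2 fold change 0.77, SE 0.17, adjusted p 0.023). Control 2 was the highest control and every knockout lay above it. Within the males the knockout had 177% of the control level, and within the females 148%.

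The abundant common subunits of complex IV did not pass the test. Cox4i1, a regulatory subunit, had 167, 158 and 171 CPM against 149, 162 and 152 CPM (log2 fold change -0.10, SE 0.061, adjusted p 0.28). Cox6a1 had 108, 106 and 111 CPM against 93.9, 101.0 and 100.2 CPM (log2 fold change -0.14, adjusted p 0.12), with no overlap. Cox6b1, on the side facing the intermembrane space, had 104, 103 and 107 CPM against 98.0, 113 and 103 CPM, with a log2 fold change of 0.003 whose sign turned under several settings. Cox7a2 and Cox8a had log2 fold changes of 0.17 and 0.029 (adjusted p 0.19 and 0.74).

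**Figure D3:**
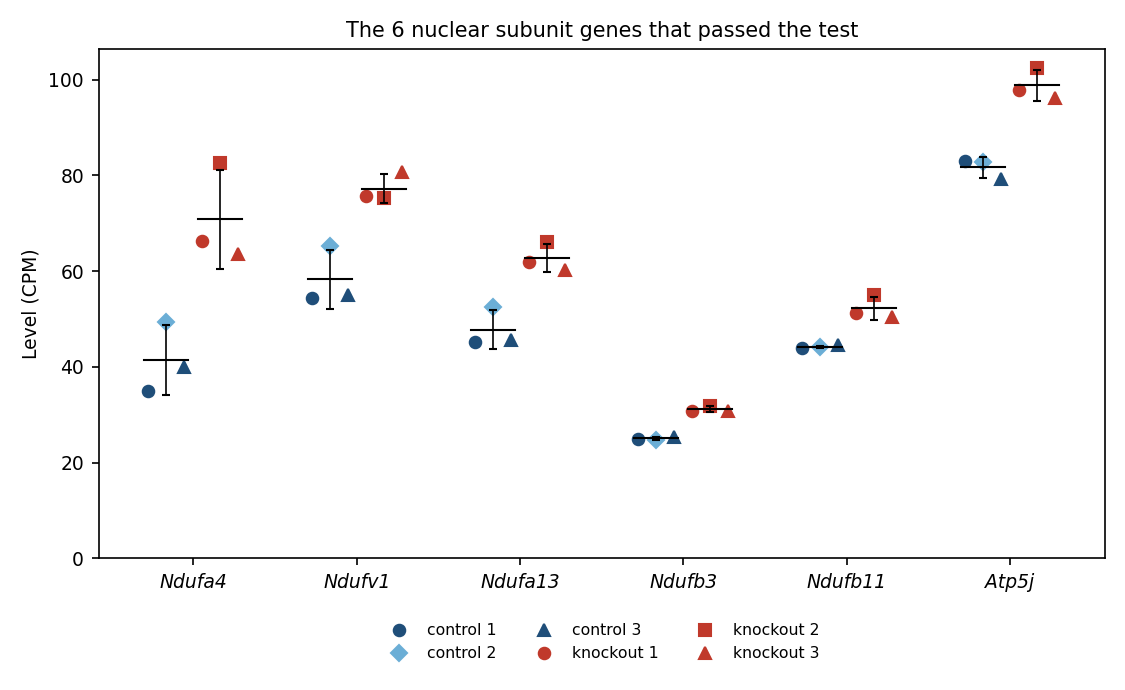
Level in CPM (y axis, from 0) of the 6 nuclear subunit genes that passed the test, 1 symbol per library, with the group mean and bars of 1 SD (n = 3). In each gene the 3 knockouts (red) lie above the 3 controls (blue), and control 2 is the highest control for Ndufa4, Ndufv1 and Ndufa13.

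The ATP synthase had 17 members, of which Atp5j rose (5.88%, against 13.1% of all tested genes) and 0 fell. Atp5j had 83.0, 82.9 and 79.2 CPM in controls and 97.8, 102.4 and 96.2 CPM in knockouts (log2 fold change 0.27, SE 0.052, adjusted p 0.016). Its exons overlap the oppositely oriented Gabpa by 12.7%. Atp5b, the catalytic beta subunit and the most abundant nuclear member per length (196 CPM per kb), had 864, 871 and 901 CPM against 790, 801 and 766 CPM (log2 fold change -0.16, SE 0.073, adjusted p 0.16). All knockouts lay below all controls, at a difference that did not pass the test. Atp5a1, the alpha subunit, had 526, 505 and 541 CPM against 511, 530 and 497 CPM, with overlapping groups.

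The membrane ring of the ATP synthase is built from an identical c subunit encoded by several genes. Atp5g1 had 40.0, 39.0 and 42.5 CPM against 33.7, 36.9 and 33.5 CPM (log2 fold change -0.22, SE 0.074, adjusted p 0.079). Atp5g3 had 157, 162 and 161 CPM against 166, 172 and 160 CPM (log2 fold change 0.052, adjusted p 0.52). Atp5s, an accessory factor that the names include, had 10.7, 8.33 and 10.5 CPM against 8.63, 8.03 and 9.36 CPM. The other 11 members had log2 fold changes from -0.024 to 0.15.

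The 6 called nuclear genes kept their calls without control 2, a fit with male controls only. In that fit 12 of 80 nuclear members were called higher and 11 lower, against 25.5% and 24.8% of all tested genes, and their median log2 fold change was 0.007. The members higher in that fit were Atp5j, Cox6b2, Cox7a2l, Ndufa13, Ndufa2, Ndufa4, Ndufa7, Ndufb11, Ndufb3, Ndufv1, Sdhc and Uqcrh. The members lower were Atp5b, Atp5g1, Cox4i1, Cox5b, Cox6a1, Cox7b, Ndufa8, Sdha, Sdhb, Uqcrc1 and Uqcrc2. Without any one of the other 5 libraries, 0 of the 6 passed the test. In these 5 fits 803 to 998 of all tested genes were called higher, in place of 1816 with all 6 libraries. For Ndufa4 the adjusted p over 16 alternative fits ran from 5.3e-04 to 0.079, and its log2 fold change from 0.65 to 0.88.

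**Figure D4:**
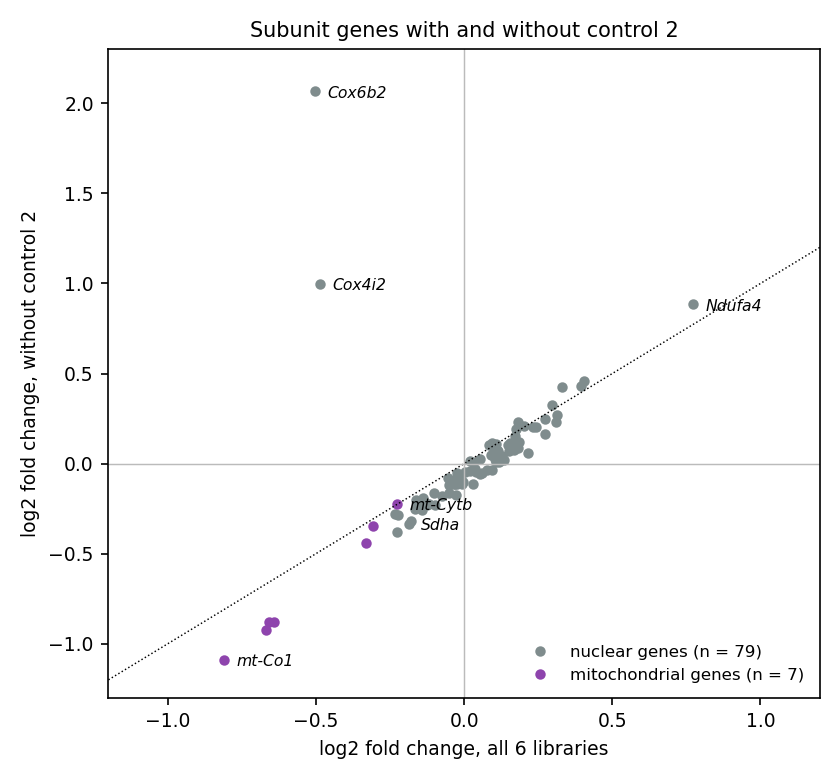
log2 fold change of 79 nuclear (grey) and 7 mitochondrial (purple) members with all 6 libraries (x axis) and without control 2 (y axis); the dotted line marks equal values. Most members lie near the line, while Cox6b2 and Cox4i2 lie far above it. Another 10 nuclear members, all between 0 and 0.093 with all libraries, have values below 0 without control 2, and 6 of the 7 mitochondrial transcripts, all except mt-Cytb, lie further from 0.

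Several complex IV subunits have tissue-restricted forms that replace the common one. Cox4i2, the form known from lung and from hypoxic cells, had 0.47, 3.05 and 0.44 CPM in controls and 0.92, 1.51 and 0.39 CPM in knockouts, at most 1.93% of the Cox4i1 count in any library. Cox6b2, the testis form, had 0.79, 11.9 and 0.66 CPM against 3.75, 3.18 and 2.45 CPM (log2 fold change -0.50, SE 1.12, adjusted p 0.77), which was 11.6% of the Cox6b1 count in control 2. Control 2 held the highest level of both, and without it Cox6b2 was called higher in knockouts at a log2 fold change of 2.07. Ndufa4l2, the hypoxia-associated relative of Ndufa4 and not a member here, had 0.58, 39.9 and 1.53 CPM against 3.34, 3.74 and 2.01 CPM (log2 fold change -2.21, SE 1.503, adjusted p 0.33). It too was called higher without control 2, at 1.49. Control 2 is the library with the high fibroblast and pericyte sums given above. Of the muscle forms, Cox6a2 had 6 counts in all, and Cox7a1 had 49 counts and at most 0.63 CPM. Cox7b2, Cox8b and Cox8c had 0 counts.

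**Figure D5:**
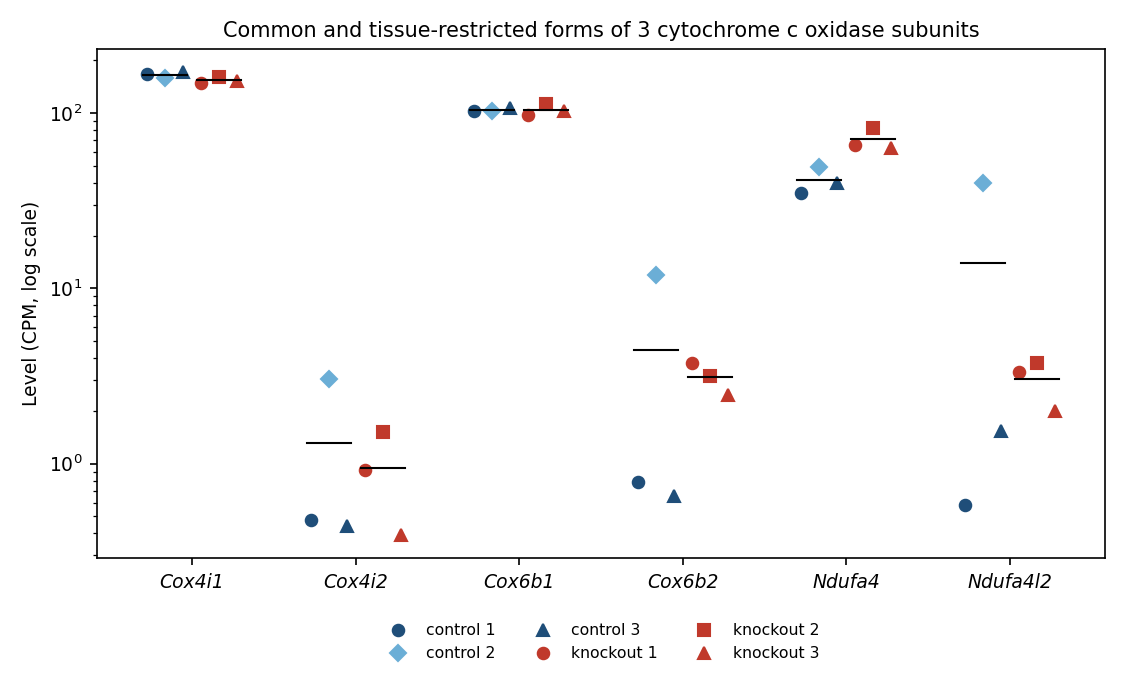
Level in CPM on a log axis of 3 common subunit genes of complex IV (Cox4i1, Cox6b1, Ndufa4) and their tissue-restricted forms or relatives (Cox4i2, Cox6b2, Ndufa4l2), 1 symbol per library, with lines at group means (n = 3). Control 2 (light diamonds) lies above the other 5 libraries for Cox4i2, Cox6b2 and Ndufa4l2, and within or near the other controls for the common forms.

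Regulators of mitochondrial biogenesis formed a list of 20 genes, of which 18 were tested, 3 rose and 1 fell, with a median log2 fold change of 0.092. The share called, 22.2%, was near the 24.7% of all tested genes. Gabpb1 and Gabpb2 encode alternative partners of Gabpa. Gabpb1 fell from 73.6, 47.4 and 68.4 CPM to 37.9, 37.4 and 36.4 CPM (log2 fold change -0.76, SE 0.17, adjusted p 0.026). Gabpb2 rose from 41.7, 34.0 and 40.7 CPM to 52.5, 56.3 and 61.1 CPM (log2 fold change 0.55, SE 0.11, adjusted p 0.018). There were 1.76, 1.39 and 1.68 Gabpb1 counts per Gabpb2 count in controls and 0.72, 0.67 and 0.60 in knockouts. Per length of merged exons, which may differ from that of the transcripts expressed, the ratios were 3.52, 2.78 and 3.36 in controls and 1.44, 1.33 and 1.19 in knockouts. By that length Gabpb1 was the higher of the pair in every library, while by counts Gabpb2 was the higher in every knockout. On either measure the ratio was lower in every knockout than in any control.

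Gabpa itself had 63.7, 85.7 and 66.0 CPM against 78.3, 73.3 and 70.3 CPM (log2 fold change 0.042, adjusted p 0.84). Tfam, which packages and helps to transcribe mitochondrial DNA, rose from 30.4, 30.8 and 28.4 CPM to 35.5, 36.2 and 36.5 CPM (log2 fold change 0.27, SE 0.065, adjusted p 0.032). Nrf1, Yy1 and the nuclear receptor Esrra did not pass the test (log2 fold changes 0.28, 0.082 and 0.10; adjusted p 0.12, 0.40 and 0.36). Of the coactivators, Pprc1 had a log2 fold change of -0.26 (adjusted p 0.054), and Ppargc1a and Ppargc1b were too low to be tested, with at most 0.21 and 1.12 CPM in any library. Nuclear members with the ETS letters had a median log2 fold change of 0.016 (16 genes) and those with a window but without them 0.099 (48 genes). Among all tested genes these medians were 0.047 and -0.005.

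The share called was 4.26% of the assembly factors, 20% of the electron carriers, 5.0% of the tricarboxylic acid cycle genes, 7.79% of the mitochondrial and 2.53% of the cytosolic ribosomal protein genes, against 24.7% of all tested genes. Of 47 tested assembly factors, 1 rose and 1 fell, with a median log2 fold change of -0.010: Cox14, a factor for mt-Co1 translation and assembly, rose from 21.5, 22.1 and 23.2 CPM to 32.0, 30.5 and 29.0 CPM (log2 fold change 0.45, SE 0.073, adjusted p 0.010), and Cox18, which inserts a complex IV subunit into the membrane, fell from 20.9, 16.99 and 21.3 CPM to 11.9, 11.1 and 13.6 CPM (log2 fold change -0.69, SE 0.13, adjusted p 0.017). Of 15 electron carriers and exchange proteins, 3 rose and 0 fell, with a median of 0.038. Ucp2, a mitochondrial carrier of the uncoupling protein family, rose from 5.64, 4.41 and 7.13 CPM to 18.2, 31.7 and 22.4 CPM (log2 fold change 2.07, SE 0.28, adjusted p 0.0061). Higd1a, a hypoxia-induced protein that binds complex IV, rose from 29.1, 33.2 and 31.4 CPM to 43.2, 43.0 and 42.2 CPM (log2 fold change 0.45, SE 0.073, adjusted p 0.0099). Of 20 genes of the tricarboxylic acid cycle, 0 rose and Dlst, of the oxoglutarate dehydrogenase complex, fell from 200 ± 7.77 to 163 ± 2.23 CPM (log2 fold change -0.29, adjusted p 0.017), with a list median of -0.015. Of 77 mitochondrial ribosomal protein genes, 4 rose and 2 fell, with a median of 0.027; Mrps6 rose from 13.3, 22.7 and 14.6 CPM to 36.3, 36.3 and 37.9 CPM (log2 fold change 1.13, SE 0.21, adjusted p 0.016). Of 79 cytosolic ribosomal protein genes, 2 rose (Rpl27 and Rps6, log2 fold changes 0.20 and 0.21) and 0 fell, with a median of 0.091. The genes named here as called in the lists from the regulators on also passed without control 2. Ucp2 and Higd1a passed with any 1 library left out, Cox14 lost its call without control 1, and each of the rest lost it without at least 1 library other than control 2.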

How the data were processed

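Endothelial RNA of 3 control and 3 knockout cultures, grouped by sample title, was compared. The authors deposited raw counts per Ensembl gene, used here as deposited, and per the submitters' processing notes FastQC 0.11.5, STAR 2.7.6a and the GRCm38 build were used. Which program counted the reads, whether by strand and on which annotation is not given in the sources used here. The labels' protocols name an unstranded and a stranded kit but not which library had which, so reads of overlapping genes cannot be told apart. Symbols came from GENCODE M21 and RefSeq tables, matched for 52489 of 52636 rows; rows without a symbol held at most 0.0061% of a library.

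Genes passing filterByExpr (13901) were tested with edgeR 4.0.16 in R 4.3.3 (TMM, quasi-likelihood F test, two-sided, Benjamini-Hochberg adjustment over all tested genes, called under 0.05). The test was checked on simulated data. CPM used TMM-scaled totals, and CPM per kb the merged annotated exons. Depth was 17274639 to 19410458 counts, and low counts limit the precision of the isoforms. Each library differed from every other beyond sampling noise.

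The members and the 12 lists were chosen with earlier results of these data known. Named genes were Erg and Fli1, all mitochondrial members, per complex the 3 most abundant nuclear members and the 3 with the largest absolute log2 fold change, every called member, tissue forms with their partners, 8 regulators, and per other list the 2 called genes with the largest change at a mean of at least 5 CPM. A gene that this rule selects is not reported here. Alternatives were scaling by RLE, upper quartile or library size alone, scaling without mitochondrial genes, DESeq2 1.42.0, limma 3.58.1 voom, other count filters, a replicate block, a sex term, a 1.5-fold threshold (glmTreat), an adjusted p under 0.01 and each library left out.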

Additional observations from a re-analysis of the deposited data

How the results depend on the processing

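Replicate numbers are shared by the groups, but the labels do not say that they pair libraries. Deviations of same-numbered libraries correlated at -0.17, 0.16 and 0.25, and not every library correlated best with its own number, so the numbers were not taken as pairs. With the replicate number as a block, 2 nuclear members were called higher (Ndufa13 and Ndufa4), and Cox6b2 had a log2 fold change of 0.71. Over all 13901 tested genes, 1038 were called higher in that fit, in place of 1816 without the block.

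The count of 6 nuclear members called higher became 17 with library size only, 0 with glmTreat against 1.5-fold and 0 at an adjusted p under 0.01, and ran from 0 to 12 with 1 library left out. The count of 0 called lower became 2 with DESeq2 and ran from 0 to 11. For the mitochondrial transcripts, 0 called lower became 6 with DESeq2 and ran from 0 to 6; in both counts the highest value is that without control 2. Library size only raised the median of all genes from 0.003 to 0.093 and gave 2501 genes called higher and 1268 lower, in place of 1816 and 1621. With glmTreat 540 of all tested genes were called higher and 442 lower. With 1 library left out, 803 to 3617 were called higher and 548 to 3511 lower. The summed nuclear level, a log2 ratio of 0.013, was 0.10 as a share of all counts and 0.067 without the 20 most abundant other genes.

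Among the genes reported, the sign changed only for ones not called with all 6 libraries. Cox6b1 had -0.024 with RLE scaling, -0.012 with upper-quartile scaling, -0.024 with DESeq2, -0.0012 with at least 1 CPM in 3 libraries and -0.015 with a sex term. Atp5a1 had 0.058 with library size only, and Cox6b2 had 0.74 with limma voom. With 1 library left out, the ranges crossed 0 for the following genes: Cox4i2 from -0.99 to 1.00, Cox6b1 from -0.051 to 0.054, Cox6b2 from -1.01 to 2.07, Cox8a from -0.017 to 0.046, Gabpa from -0.042 to 0.16, Ndufa4l2 from -2.76 to 1.49, Ndufs1 from -0.048 to 0.077, Yy1 from -0.0056 to 0.11.
The cause of these moves was not tested. Depth limits Cox4i2 and Cox7a1, which had about 1 CPM or less on average. mt-Co3 and mt-Nd3 were lower still, at means of 0.09 and 0.11 CPM. They share 99.86% and 97.99% of their 50-base sequences with other genes, and the part of this in their low counts was not tested.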
